A study of Mus musculus with 4 samples.

Results

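The interleukin-6 and interleukin-11 cytokine family was represented by 8 genes, the ligands Il6, Il11, Lif and Osm and the receptor chains Il6st, Il11ra1, Lifr and Osmr. A peak was counted for a gene when its summit, the position of highest ChIP signal, lay in the annotated span of the gene or within 50 kb of either end. This gave 29 of 21285 peaks in list 1 and 20 of 21218 peaks in list 2. The peaks came from chromatin immunoprecipitation with sequencing (ChIP-seq) in cardiac fibroblasts of newborn mice, and the design text names TEAD1 as the factor whose binding was to be mapped. Cells of the group OE-TEAD1 overexpressed TEAD1, and cells of the group OE-NC carried the negative control of the overexpression. Each group gave 1 ChIP library and 1 input library, which is DNA of the same chromatin without immunoprecipitation, so there were no replicates. The deposited lists are named a1 and a2, and the labels do not say which of them is OE-NC and which is OE-TEAD1. They are called list 1 and list 2 here, and no effect of overexpression is given. The labels name neither the antibody, the vector, the age in days nor the number of animals pooled. Peak lists record binding and not expression, so they hold no test of the cell type and do not say which of the 8 genes these cells transcribe.

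Cytokines of this family signal through a shared receptor chain, gp130, which Il6st encodes. Interleukin-6 and interleukin-11 each bind a receptor chain of their own that presents them to gp130, whereas leukaemia inhibitory factor (Lif) pairs gp130 with Lifr, and mouse oncostatin M (Osm) pairs it mainly with Osmr. The assembled receptor activates Janus kinases and the transcription factor STAT3, and Socs3 feeds back to shut the signal down. In the heart the family is known for its part in fibroblast activation, in the response of cardiomyocytes to stress and in inflammation. TEAD1 is the DNA-binding partner of the coactivators YAP and TAZ, and it often binds distal enhancers near sites of the factor AP-1.

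Peaks were found near 7 of the 8 genes in each list, the same 7 in both, and Il11ra1 was the gene without one. Over all 21631 protein-coding genes of the RefSeq table, 58.2% had a summit in the same window in list 1, 59.0% in list 2 and 52.2% in both, so most genes meet this rule. For 5 of the 7 genes the member was also the protein-coding gene nearest to at least 1 summit. Within 10 kb of the span 4 of the 8 genes had a summit in list 1 and 5 in list 2, against 33.7% and 33.8% of all protein-coding genes. Il11 and Osm were counted only through summits that lay nearer to, or inside, another gene. The windows of Lif and Osm overlap, since 16.5 kb separate the genes on chromosome 11, and 1 peak of each list was counted for both. The 7 merged windows cover 0.973 Mb and held 29.8 peaks per Mb in list 1 and 20.6 in list 2. The same windows around all protein-coding genes held 10.3 and 10.2 peaks per Mb. These densities are descriptions without a test.

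The peaks varied widely in strength. The fold over input is the authors' ratio of ChIP signal to background at the summit. It ran from 3.77 to 42.2 in list 1 (median 6.75, against 6.24 over all peaks). In list 2 it ran from 3.49 to 79.6 (median 7.27, against 6.83). Of the 29 peaks in list 1 there were 4 with a fold of at least 10, or 13.8% against 22.9% of all peaks, and of the 20 in list 2 there were 7, or 35.0% against 28.1%. The fragment number behind each summit, recovered from the deposited fold and p, ran from 10 to 114 in list 1 and from 11 to 227 in list 2. The intervals given with the folds are exact Poisson 95% intervals of that number and cover counting error only. The background recovered with it was at lowest 1.723 fragments in list 1 and 1.866 in list 2. The strongest Lif peak stood at this lowest value in both lists, as did other peaks of the family. Their folds were thus taken over the lowest background of the list. Ordered by the fold of the strongest peak, Lif stood first in both lists, and its interval did not overlap that of the next gene. List 1 then ran Il11, Lifr, Il6st, Osmr, Il6 and Osm. List 2 ran Lifr, Il11, Osm, Osmr, Il6st and Il6. In each list the intervals of all neighbours after Lif overlapped.

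**Figure D1:**
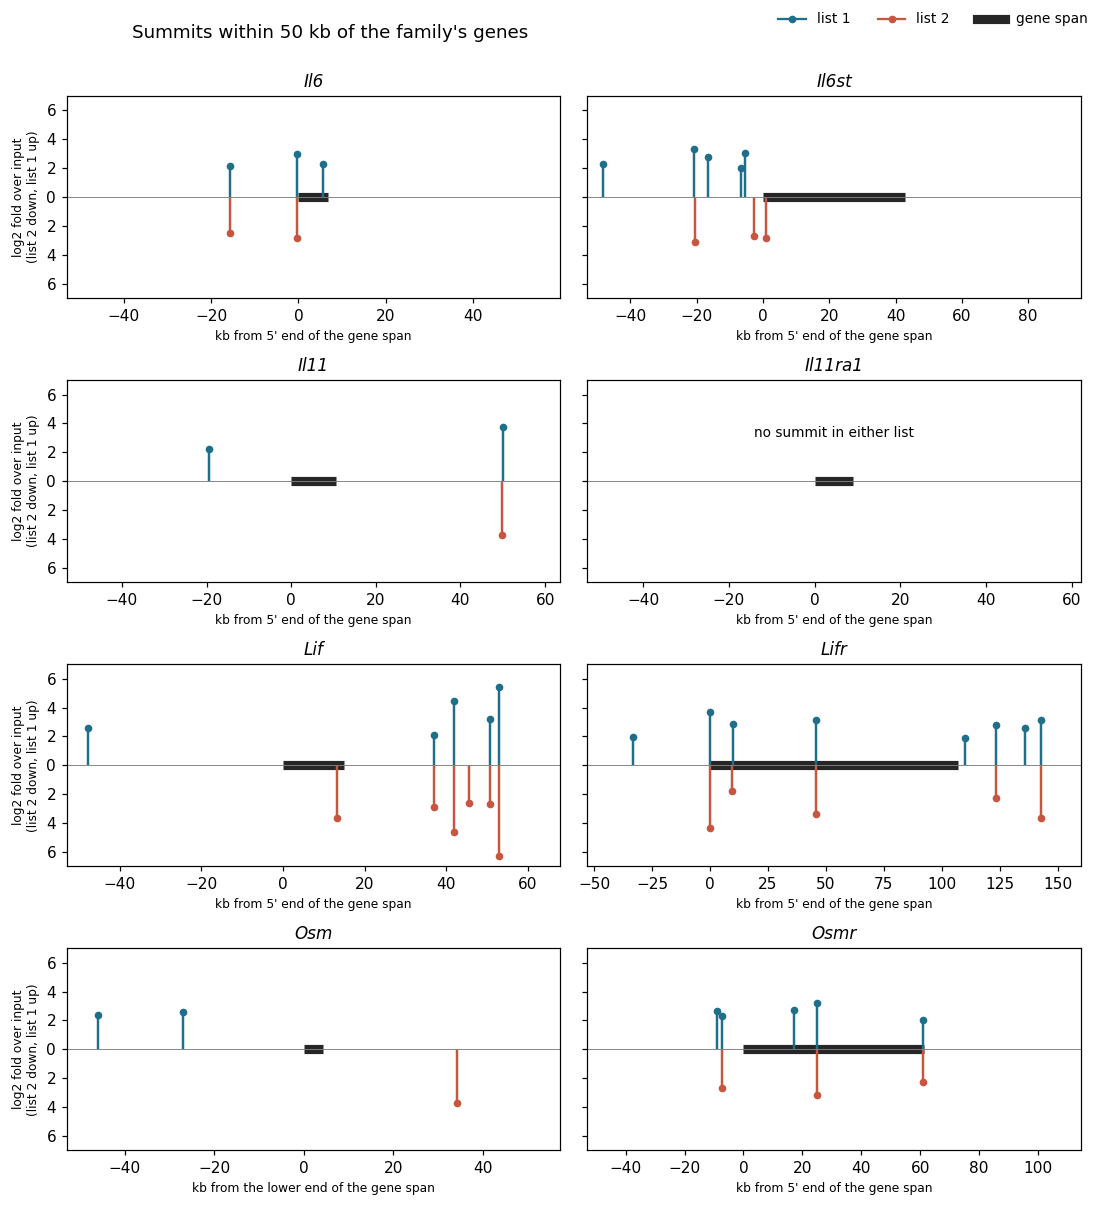
Summits around each gene, with the distance from the 5′ end of the gene span in kb on the x axis (for Osm, whose strand is not in the promoter table, from the lower end) and log2 fold over input on the y axis, list 1 upward and list 2 downward. The dark bar is the gene span. The tallest pair lies after Lif (42.2-fold and 79.6-fold), the Il6st summits lie before the gene or close to its start, and Il11ra1 has none.

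Among the ligands, Lif carried the strongest binding. Leukaemia inhibitory factor is a cytokine best known for keeping mouse embryonic stem cells undifferentiated, and it also acts on cardiomyocytes. The gene lies on chromosome 11 at 4257568 to 4272514, and 4 of its 5 summits in list 1 and 5 of its 6 in list 2 lay after the gene, between 22.1 and 38.0 kb from its end. The strongest peak, at chr11:4310140-4310989 in list 1 and chr11:4310168-4311023 in list 2, reached 42.2-fold over input in list 1 (34.9 to 50.7, 114 fragments). In list 2 it was 79.6-fold (69.6 to 90.6, 227 fragments), with its summit at the same base, 4310501. It ranked 229 of 21285 in list 1 and 70 of 21218 in list 2 by −log10 q. As a strongest nearby peak, a −log10 q as high as this was found for 324 protein-coding genes in list 1 and for 99 in list 2. This summit lies 38.0 kb from the end of Lif and 35.3 kb from Hormad2, a gene of meiotic chromosomes, which is thus slightly nearer.

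The other peaks after Lif formed a group on the Lif side of that site. A peak 26.9 kb after the gene, at chr11:4299318-4299901 in list 1, was 21.7-fold over input (16.5 to 27.9), and list 2 gave 24.3-fold (19.0 to 30.6) at the same site. Peaks 22.2 and 35.9 kb after the gene in list 1 were 4.24-fold and 9.18-fold over input, and their list 2 partners were 7.55-fold and 6.50-fold. List 2 had another peak 30.8 kb after the gene (6.25-fold), without a partner in list 1. The long noncoding RNA gene Gm11958 spans the first of these sites, and 2 summits of list 1 and 3 of list 2 lay inside it. In the remaining stretch up to Hormad2, beyond the 50 kb window, list 1 had 2 summits of 6.61-fold and 3.58-fold, and list 2 had 1 of 5.21-fold. Inside Lif itself list 2 had a peak at chr11:4270659-4271025, 13.3 kb after the start, that was 12.9-fold over input (9.15 to 17.7, 36 fragments). No list 1 peak overlapped it. Among the 6073 peaks of list 2 without a partner in list 1 it ranked 23 by −log10 q.

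Il6, encoding the founding cytokine of the family, had a peak over its promoter in both lists. The gene lies on chromosome 5 at 30013114 to 30019975, inside the span of the long noncoding RNA gene A230098N10Rik. The promoter peak, at chr5:30012402-30013210 in list 1 and chr5:30012610-30013133 in list 2, reached 8.08-fold over input in list 1 (5.14 to 12.2, 21 fragments) and 6.99-fold in list 2 (4.54 to 10.3, 23 fragments). Its summit lay 406 bp before the start of transcription in list 1 and 340 bp before it in list 2. A weaker site 15.6 kb before the gene was also called in both lists, with folds of 4.41 (2.38 to 7.60) and 5.58 (3.28 to 8.98). Another peak, inside the gene 5.50 kb after its start, was called in list 1 alone (4.94-fold, 2.80 to 8.20, 13 fragments). These are moderate peaks: 35.1% of protein-coding genes in list 1 and 39.8% in list 2 had a strongest nearby peak with a −log10 q at least as high as that of Il6.

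A peak over a listed promoter was uncommon. The RefSeq promoter table (GRCm38.p6) lists starts for 7 of the 8 genes, all but Osm, in 10 windows. Of the 250 bases before each start, those of Il6 were overlapped by a peak, in both lists, and the other 9 were not. The strongest Lifr peak, with summits 82 and 87 bp outside the 5′ edge of its span, is not counted here. No start is listed at that edge, so the count covers listed starts only. Over all 32619 such windows 1.78% were overlapped in list 1, 1.62% in list 2 and 1.13% in both. The windows were searched on both strands for GGAATG, the core of the TEAD motif, for the AP-1 motif TGAGTCA or TGACTCA, which are reverse complements of each other, and for the STAT motif TTCNNNGAA. The Il6 window lay wholly within both peaks and held no TEAD or STAT word. It held 1 AP-1 word, from 249 to 243 bases before the start. Lif, for comparison, held an AP-1 word from 228 to 222 bases before its start and had no peak there. The windows of both ligands are shown for this contrast, ending at the base before the start, with the AP-1 word in capitals (RefSeq, GRCm38.p6, plus strand, chr5:30012864-30013113 and chr11:4257318-4257567).
Il6: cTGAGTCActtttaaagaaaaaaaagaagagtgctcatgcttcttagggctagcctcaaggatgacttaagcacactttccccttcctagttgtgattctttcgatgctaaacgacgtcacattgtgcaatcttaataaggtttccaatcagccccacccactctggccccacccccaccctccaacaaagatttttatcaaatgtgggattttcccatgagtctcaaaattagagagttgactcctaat
Lif: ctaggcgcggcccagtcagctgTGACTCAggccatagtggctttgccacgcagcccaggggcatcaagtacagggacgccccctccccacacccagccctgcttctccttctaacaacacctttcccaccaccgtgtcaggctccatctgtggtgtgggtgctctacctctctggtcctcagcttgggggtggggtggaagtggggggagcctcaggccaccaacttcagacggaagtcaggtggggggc

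Of the 10 windows of the family 3 held an AP-1 word, the other being at an inner start of Il11 (98 to 92 bases before it). The TEAD word occurred in 1 window, at an inner start of Il11ra1 (78 to 73 bases before it), where neither list had a peak, and the STAT word in none. Over all promoter windows 4.48% held the AP-1 word, 12.6% the TEAD word and 7.05% the STAT word. Among the 369 windows that overlapped a peak in both lists these shares were 12.7%, 33.9% and 9.21%. A word match is a description of the letters and does not mark a bound site. The distal sites could not be searched, because the genome sequence was not used here.

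Il11, encoding the gp130 cytokine best known for driving fibroblasts towards a matrix-producing state, had no summit within 10 kb in either list. It lies on chromosome 7 at 4772373 to 4782907 among 9 other protein-coding genes in its window. Its strongest peak, at chr7:4732622-4733414 in list 1 and chr7:4732677-4733225 in list 2, lay 39.4 kb after the gene end and 7.11 kb from Kmt5c, a histone methyltransferase gene. The folds were 13.6 (9.63 to 18.7) in list 1 and 13.3 (9.44 to 18.1) in list 2, and the fragment numbers were 36 and 37. List 1 alone had a weak peak 19.4 kb before the gene (4.77-fold, 2.64 to 8.07), nearest to Ube2s.

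Osm, encoding oncostatin M, a cytokine made mainly by leukocytes, had no summit in its span and none within 10 kb. Its span runs on chromosome 11 from 4236785 to 4241026. List 1 had 2 weak peaks in its window, of 5.14-fold and 5.88-fold, both inside the neighbouring gene Tbc1d10a. List 2 had 1, the 12.9-fold peak inside Lif described above. No peak of this window was called in both lists.

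The shared receptor chain Il6st had 5 summits in list 1 and 3 in list 2. The gene lies on chromosome 13 at 112464070 to 112506860. In list 1 all 5 lay before the gene, and in list 2 there were 2 before it and 1 inside, 1.01 kb after the start. Neither list had a summit in the rest of the span or in the 50 kb after it, which the span of Il31ra, a receptor gene of the same family, overlaps. The strongest peak, 20.7 kb before the gene in list 1 at chr13:112443090-112443780, was 9.91-fold over input (6.60 to 14.4). List 2 gave 8.72-fold (5.71 to 12.8) at this site, the only Il6st site that was called in both lists. Closer to the start the lists named different sites. List 1 had peaks 5.36 kb before the start (8.13-fold, 5.33 to 11.9), 6.54 kb before it (4.04-fold) and 16.6 kb before it (6.98-fold). List 2 had peaks 2.62 kb before the start (6.63-fold, 4.07 to 10.3) and 1.01 kb after it (6.98-fold, 4.34 to 10.7). Each of these rested on 10 to 24 fragments.

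Lifr, encoding the signalling receptor chain for leukaemia inhibitory factor, had 8 summits in list 1 and 5 in list 2, the most of the family in list 1. Its span runs on chromosome 15 from 7090610 to 7197489. As many summits were found for 2.75% of protein-coding genes in list 1 and 8.88% in list 2, although its window of 206.9 kb is also the longest of the family. Its strongest peak, at chr15:7090204-7090659 in list 1 and chr15:7090206-7090712 in list 2, lay at the 5′ edge of the span. The summit was 82 bp outside the span in list 1 and 87 bp in list 2. The fold was 12.7 in list 1 (9.41 to 16.8, 47 fragments) and 20.1 in list 2 (15.9 to 25.2, 75 fragments). The starts in the promoter table lie further inside, the nearest of them 39.0 kb away, and no listed start lies at this edge. Inside the gene both lists had a peak 4.3 kb before the second listed start, of 8.97-fold (6.02 to 12.9) and 10.45-fold (7.33 to 14.5). Another intragenic site, about 9.8 kb into the span in list 1 and 9.4 kb in list 2, was 7.11-fold and 3.49-fold. Before the gene list 1 alone had a weak peak, 33.3 kb away (3.87-fold). After the gene the summits lay inside Egflam, which encodes an extracellular matrix protein, apart from 1 weak list 1 peak (3.77-fold) between the genes. The strongest of these was 8.64-fold in list 1 and 12.9-fold in list 2, 36.1 kb after the end of Lifr.

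Osmr, encoding the signalling chain of the oncostatin M receptor, lies 215.6 kb from Lifr on the same chromosome, at 6813568 to 6874968, and is read from the minus strand. It had 5 summits in list 1 and 3 in list 2, all within the span or within 10 kb before it. The strongest, at chr15:6849906-6850516 in list 1, lay inside the gene 24.2 kb after the listed start. It was 9.24-fold over input (6.58 to 12.7) in list 1 and 8.95-fold (6.37 to 12.2) in list 2, with 37 fragments in each. A site 7.4 kb before the span was 5.01-fold and 6.37-fold, and a site near the 3′ end of the gene was 4.18-fold and 4.79-fold. Peaks 17.1 kb into the gene (6.75-fold) and 9.07 kb before it (6.201-fold) were called in list 1 alone.

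Il11ra1, encoding the receptor chain that binds interleukin-11, had no summit in its span, within 50 kb or within 100 kb in either list. It lies on chromosome 4 at 41760443 to 41769473. Its window holds 7 other protein-coding genes, among them the chemokine gene Ccl27a and the galactose enzyme gene Galt. Within 100 kb 70.9% of protein-coding genes had a summit in list 1 and 72.0% in list 2. A site without a call may still be bound below the authors' threshold, since the lowest number of fragments at any called summit was 8.

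The lists were then set side by side at the sites of the family. In list 1, 16 of 29 peaks (55.2%, with a Wilson 95% interval of 37.5 to 71.6) had a partner in list 2, against 70.9% of all list 1 peaks. In list 2, 16 of 20 (80.0%, 58.4 to 91.9) had a partner in list 1, against 71.4% of all list 2 peaks. Both intervals include the share over all peaks. They treat the peaks as independent, although the peaks lie together in 7 merged windows and both shares count the same 16 sites. The inclusion is thus a description and not a test. The unshared peaks had the lower significance: their median −log10 q was 5.58 for the 13 of list 1, against 17.6 for its shared peaks, and 10.9 for the 4 of list 2, against 16.0. At the 16 shared sites the summits lay a median of 21.5 bp apart, and at most 353 bp, at the intragenic Lifr site. On the log2 scale the fold in list 2 differed from that in list 1 by a median of 0.18, against 0.15 over all 15015 shared sites. List 2 had the higher fold at 9 sites and list 1 at 7, where over all shared sites list 2 was higher at 61.7%. The counting intervals of the lists were apart at 1 of the 16 sites, against 8.79% of all shared sites. It was the strongest Lif peak, where the fold in list 2 was 1.88 times that in list 1. Since each list rests on 1 library, no spread between cultures was available to judge this difference.

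**Figure D2:**
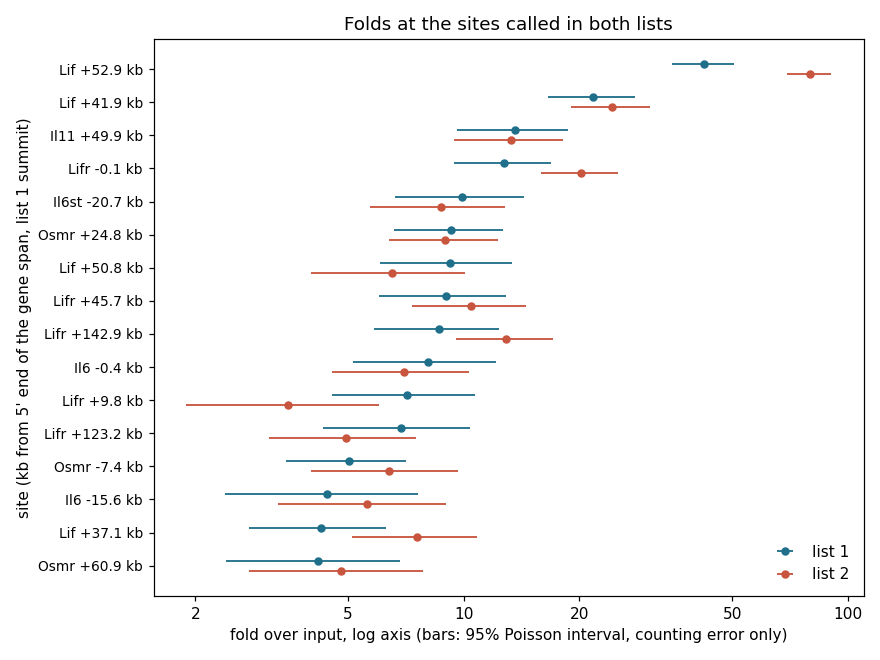
Folds over input at the 16 sites of the family called in both lists, on a log axis, with bars for the 95% Poisson interval (counting error only). Sites are named by gene and by the distance of the list 1 summit from the 5′ end of the gene span, and ordered by the list 1 fold. The intervals of the lists overlap at every site but the strongest Lif peak, at 42.2-fold and 79.6-fold, and are apart at 8.79% of all shared sites.

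Other genes of the pathway were taken from 6 lists with 43 genes. The lists were drawn from general knowledge, but with earlier results of these data known, so their shares are not an independent count. Of these 33 had a summit within 50 kb in list 1, or 76.7% against 58.2% of all protein-coding genes, and 32 in list 2, or 74.4% against 59.0%. The counts were not tested. A peak with a fold of at least 10 lay near 17 genes in list 1 and 20 in list 2, where 24.4% and 28.1% of all protein-coding genes had one. Among the other ligands 3 of 7 had a peak in each list. Cntf, encoding ciliary neurotrophic factor, was at 12.1-fold (8.41 to 17.0) in list 1 by a peak 0.58 kb from the gene. Its strongest list 2 peak was at another site, 31.3 kb away and nearest to Lpxn (10.6-fold). Clcf1, another cytokine gene of the family, was at 8.81-fold and 6.28-fold and Il27 at 5.53-fold and 8.03-fold, each at different sites in the lists. The Clcf1 peaks lay 41.1 and 25.4 kb away, both nearest to Ssh3. The Il27 peak of list 2 lay 33.2 kb away and nearest to Nupr1. Ctf1, encoding cardiotrophin 1, was among the genes without a peak in either list. Among the other receptors 3 of 4 had one. Il6ra, the receptor chain that binds interleukin-6, had 4 summits in list 1 and 7 in list 2. Its strongest list 1 peak, nearest to She, was 9.19-fold (6.37 to 12.9). The strongest in list 2 was 12.8-fold (9.20 to 17.4), at another site, inside the gene. Il27ra was at 8.08-fold and 12.2-fold at a site nearest to Palm3, and Cntfr at 5.86-fold and 8.03-fold at different sites, nearest to Enho and Dnaic1. Il31ra had no peak.

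In the intracellular part of the pathway, 9 of 11 kinases, STATs and adaptors had a summit in list 1 and 8 in list 2, and 7 of 9 feedback inhibitors had one in each list. Over all protein-coding genes 58.2% and 59.0% met the same rule. Jak1, a kinase bound to gp130, had 7 summits in list 1 and 9 in list 2, the strongest inside the gene at 13.4-fold (10.6 to 16.8) and 15.8-fold (12.8 to 19.4). The adaptor gene Shc1 was at 21.0-fold (16.1 to 27.1) and 10.7-fold (8.04 to 13.9), also inside the gene. Near Stat3, the main effector of the family, the strongest site was 21.5-fold (16.5 to 27.6) and 12.5-fold (9.38 to 16.3), but it lay 40.5 kb from Stat3 and nearest to the caveolae gene Cavin1. Among the feedback inhibitors, Socs3 had 8 summits in list 1 and 4 in list 2, and its strongest peaks, 17.6-fold and 17.8-fold, lay at different sites in the lists, 19.7 and 45.6 kb away and nearest to Pgs1. Socs2 was at 8.60-fold and 13.1-fold and Ptpn2, a phosphatase gene, at 8.46-fold and 9.77-fold, each inside the gene. Of the receptor sheddases, which cut receptor chains from the cell surface, Adam10 had a strongest peak of 8.45-fold inside the gene in list 1 and of 6.63-fold at another site, nearest to Mindy2, in list 2, and Adam17 had none.

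All 10 genes of the list of STAT3 response genes had a summit within 50 kb in both lists, against 52.2% of all protein-coding genes. Within 10 kb of the span 8 had one in list 1 and 7 in list 2, against 33.7% and 33.8% of all protein-coding genes. The strongest peaks of the 10 genes had a median fold of 13.6 in list 1 and 11.3 in list 2. The median over all protein-coding genes with a summit was 8.81 and 9.42. For many of the 10 genes in each list the strongest peak lay nearest to another gene, as given below for Junb. The medians include these peaks. Bcl3, a nuclear regulator of NF-kappa-B, had a single peak, inside the gene, at 37.1-fold (30.2 to 45.0) and 25.4-fold (20.1 to 31.7). Junb, an AP-1 subunit gene, was at 25.0-fold (19.4 to 31.6) and 33.1-fold (26.9 to 40.5), at a site 16.8 kb away and nearest to Rnaseh2a. Mcl1, encoding a survival protein, had 10 summits in list 1 and 11 in list 2. Those with the highest −log10 q, 23.1-fold in list 1 and 17.7-fold in list 2, lay at different sites. The list 1 site was 25.2 kb away and nearest to Adamtsl4, and the list 2 site was 6.1 kb away and nearest to Mcl1. The highest fold of a Mcl1 summit in list 2 was 21.6. Many of these genes are also induced by other signals, so the list is not particular to this family. It too was chosen with earlier results of these data known, and its shares were not tested.

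Pim1 and Timp1, named here after their values were seen, were the genes of these lists whose 250 bases before a listed start met a peak. At Pim1, a kinase gene, the peak was 14.2-fold (10.6 to 18.6) and 11.1-fold (7.87 to 15.1), and the window held none of the 3 motifs. At Timp1, encoding an inhibitor of matrix proteases, a weaker peak of 6.24-fold (3.73 to 9.91) and 4.88-fold (2.76 to 8.11) covered the first 43 bases of the window in list 1 and the first 62 in list 2. The TEAD word GGAATG stood in that stretch, from 247 to 242 bases before the start, and the summits lay 589 and 656 bp before the start. The window is shown as the promoter of these lists where a TEAD word and a peak coincide, with the word in capitals (RefSeq, GRCm38.p6, plus strand, chrX:20869916-20870165).
Timp1: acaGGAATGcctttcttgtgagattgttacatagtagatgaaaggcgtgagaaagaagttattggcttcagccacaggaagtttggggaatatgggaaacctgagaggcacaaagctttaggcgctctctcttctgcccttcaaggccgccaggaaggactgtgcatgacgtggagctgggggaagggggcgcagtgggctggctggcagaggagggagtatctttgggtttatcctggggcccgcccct

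**Figure D3:**
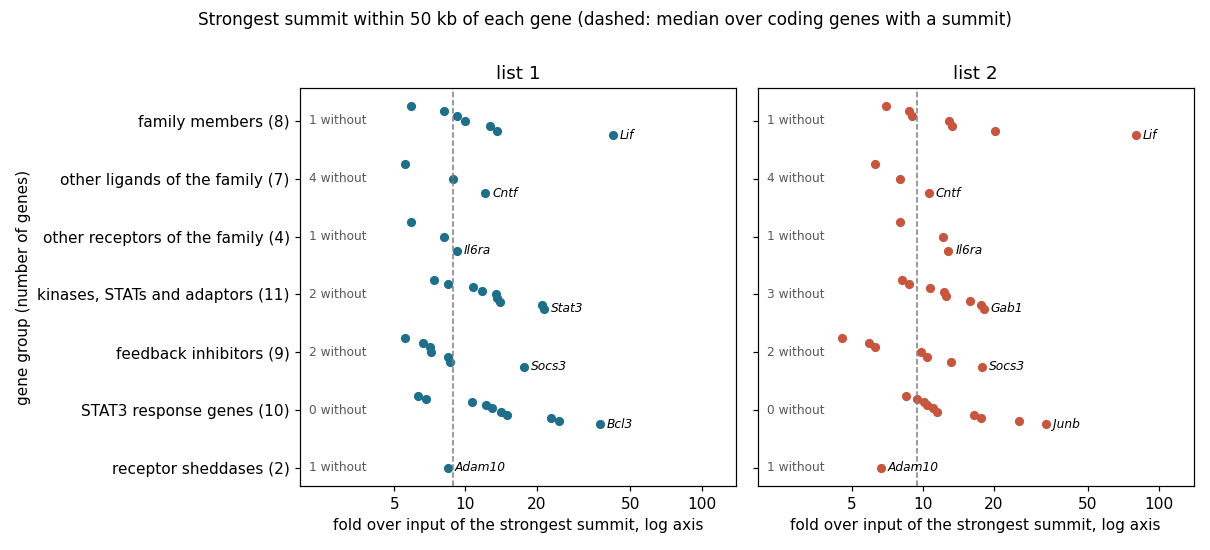
Fold over input of the summit with the highest −log10 q within 50 kb of each gene, on a log axis, for the family and the 6 pathway lists in list 1 (left) and list 2 (right). Each point is a gene, the highest is named, the grey text counts genes without a summit, and the dashed line is the median over all protein-coding genes with a summit (8.81 and 9.42). Lif lies furthest to the right in both panels.

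As a check of the immunoprecipitation, 5 known TEAD targets were read the same way, and all had summits within 50 kb in both lists, as had 52.2% of all protein-coding genes. Ccn1, a matricellular protein gene induced by YAP, reached 57.0-fold and 75.8-fold, and Amotl2 55.1-fold and 74.7-fold. The strongest Lif site, at 42.2-fold and 79.6-fold, was below both in list 1 and slightly above both in list 2. Its list 2 interval, 69.6 to 90.6, includes both of their list 2 folds, so that order is not resolved. Ankrd1 (35.0-fold and 20.2-fold), Ccn2 (25.9-fold and 42.2-fold) and Ajuba (17.2-fold and 23.1-fold) were lower than Ccn1 in both lists.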

How the data were processed

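ChIP and input DNA of cardiac fibroblasts of newborn mice were sequenced in 4 libraries, 1 per group. Per the submitters' processing notes, the authors used Trimmomatic 0.33, Bowtie 1.1.2 and MACS2. None of the sources used here gives the version or settings of MACS2. Both deposited lists, without a header, give each peak's position, a score (10 times the −log10 q), the fold over input (a ratio) and the −log10 p and −log10 q of the authors' test. The build in the processing notes, mm39, has shorter chromosomes 2, 3, 7 and X than the peaks need. Coordinates were therefore checked against GRCm38.p6 starts: 1157 and 1089 summits lay within 1 kb of one, against 617 to 678 after shifts of 50 or 100 kb in either direction. They are given as GRCm38, counted from 1. No promoter of chromosome 18 was used here.

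ChIP fragments and the background of each peak were solved from the deposited fold, (fragments + 1)/(background + 1), and Poisson p. They came out whole within 0.02 for all but 2 peaks per list, and for every peak of the family. The solving was tested on simulated data. An overlap of 1 bp or more made peaks shared, and folds were compared over mutual best overlaps. Positions relative to exons were not analysed here. The members and lists were chosen with earlier results of these data known. All members were named, as were the 3 genes of each pathway list with the highest −log10 q in list 1 and, in lists of 4 or fewer, each gene with a peak. 1 pathway gene is not reported here. Likeness to other genes was not computed over 2 lists. No test was run between conditions. Alternatives were other windows, stricter thresholds and other definitions of overlap. Python 3.11.15 with numpy 2.4.6, scipy 1.17.1 and pandas 2.3.3 was used.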

Additional observations from a re-analysis of the deposited data

How the results depend on the processing

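The window set how many peaks were counted. With 10 kb in place of 50 kb there were 13 peaks in list 1 and 10 in list 2, near 4 and 5 members, and with 100 kb 46 and 33. With a fold of at least 10 there were 4 peaks near 3 members in list 1 and 7 near 4 members in list 2, and the shared share was 100% of 4 and 57.1% of 7 when the partner also had to reach it. Of the 43 pathway genes 17 and 20 were left with a fold of at least 10, and 21 in list 2 with 10 kb. Over all protein-coding genes 24.4% in list 1 and 28.1% in list 2 had a fold of at least 10 within 50 kb. A summit within 10 kb was found for 33.7% and 33.8% of them. Requiring a −log10 q of at least 5, an overlap of 50% of both peaks, summits within 200 bp, or the member to be the nearest coding gene moved no count by over 1.5 times, and no shared share beyond its interval. The median log2 ratio at shared sites ran from 0.09 (fragments in place of folds) to 0.20. No paired analysis was possible because each group has 1 library and the lists are not tied to samples. Library depths are not in the lists, and peaks with 10 to 20 fragments have wide intervals.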
